A study of Mus musculus with 6 samples.

Results

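Cortical interneuron subtype markers are genes whose RNA marks classes of GABA-releasing local neurons. The set followed here held 10 genes, chosen by name: Pvalb, Sst, Vip, Lhx6, Reln, Erbb4, Npy, Cck, Calb2 and Tac1. All 10 were found among the 45495 named genes of the series and all 10 entered the test, which covered 15419 genes. The tissue was homogenised prefrontal cortex taken at postnatal week 8, sequenced as total RNA in 3 wild type libraries and 3 libraries from mice heterozygous for the 16p11.2 duplication. That duplication copies a mouse chromosome segment matching a human region whose gain is linked to autism and schizophrenia, and none of the 10 genes lies on the mouse chromosome that carries it. The line was made on a hybrid of C57BL/6N and 129Sv and crossed to C57BL/6 for 10 generations, the background that both groups are said to share. The labels do not say whether every library is its own animal. The p-values therefore reflect only how far these samples spread, and that spread may be technical. The study's title names Npas4, a regulator of GABA synapses, and the comparison here asks whether interneuron marker RNA differs with the duplication.

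Interneurons of the cortex fall into a few broad families that inhibit different parts of their target cells. Cells with parvalbumin, the calcium-binding protein encoded by Pvalb, fire fast and contact cell bodies and axons, while cells with somatostatin, from Sst, contact dendrites. Both arise in the medial ganglionic eminence of the embryo and need the transcription factor LHX6. Cells with vasoactive intestinal peptide, from Vip, arise in the caudal ganglionic eminence and mainly inhibit other interneurons, and many of them carry calretinin, encoded by Calb2. Reelin, from Reln, is a secreted glycoprotein that marks neurogliaform and some somatostatin cells, and ERBB4 is a neuregulin receptor found mostly on interneurons in the cortex.

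The names in the deposited table had slipped against the counts, and for 6 of the 10 markers the offset was above 0. Once names and counts were re-aligned, the 6 libraries together held 897 counts of Lhx6 in place of 43, 26366 of Cck in place of 984, 3986 of Npy in place of 42 and 1335 of Tac1 in place of 0. In windows of 250 names on each side, the best-fitting offset equalled the one applied for 10 of 10 markers. Per library, 12988457 to 21872271 reads were counted to genes. Markers of pyramidal neurons had summed levels of 2203 to 2761 CPM (counts scaled to a common library size) in wild type and 2216 to 2338 in duplication libraries. All 9 were measured, among them Slc17a7, the vesicular glutamate transporter of these cells. Of 8 striatal markers Isl1 had 0 counts in every library, and of 5 septal markers Lhx8 did. Xist, the X inactivation RNA, had 0 counts in the libraries numbered 1 of both groups and 2090 to 3531 in the others. The libraries numbered 2 also held Y-linked counts, at 6.17% and 6.16% of the rate in wild type replicate 1. Meningeal fibroblast markers summed to 17.7 to 30.1 CPM in wild type and 28.2 to 57.2 in duplication libraries. Oligodendrocyte markers summed to 1324 to 2279 and 1185 to 1597 CPM. On the first principal component, with 45.5% of the variance, wild type replicate 2 lay apart from the other wild type libraries, at 4.05 against -27.2 and -26.7, and the duplication libraries at 7.23 to 24.8. Wild type replicate 1 stood apart in olfactory bulb markers. Values without either are given where they end a call, start one or move the value of a named gene by over 1.5 times. In a bulk sample, fewer cells of a type and less RNA per cell cannot be told apart.

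No interneuron marker passed the test between genotypes, and most stayed within a narrow range. In edgeR's quasi-likelihood test with Benjamini-Hochberg adjustment over all 15419 genes, 0 of the 10 markers were called higher and 0 lower, where 0% of all genes were called. At an unadjusted p under 0.05, Cck was the only marker with a positive value and Lhx6 and Reln were the markers with a negative one. Of all genes 7.05% had such a p with a higher value and 12.2% with a lower one, or 19.2% in either direction. DESeq2 called 1 marker, Cck, where it called 1.48% of genes, and limma-voom called 0. With the replicate number as a block edgeR called 0 markers and 0.0454% of all genes. The median log2 fold change (duplication over wild type) of the 10 genes was 0.07, against 0.005 over all genes tested. For 8 of 10 genes the 95% interval lay inside a 1.5-fold change in both directions, and Reln and Calb2 were the exceptions. The intervals of 7 genes included 0.

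**Figure D1:**
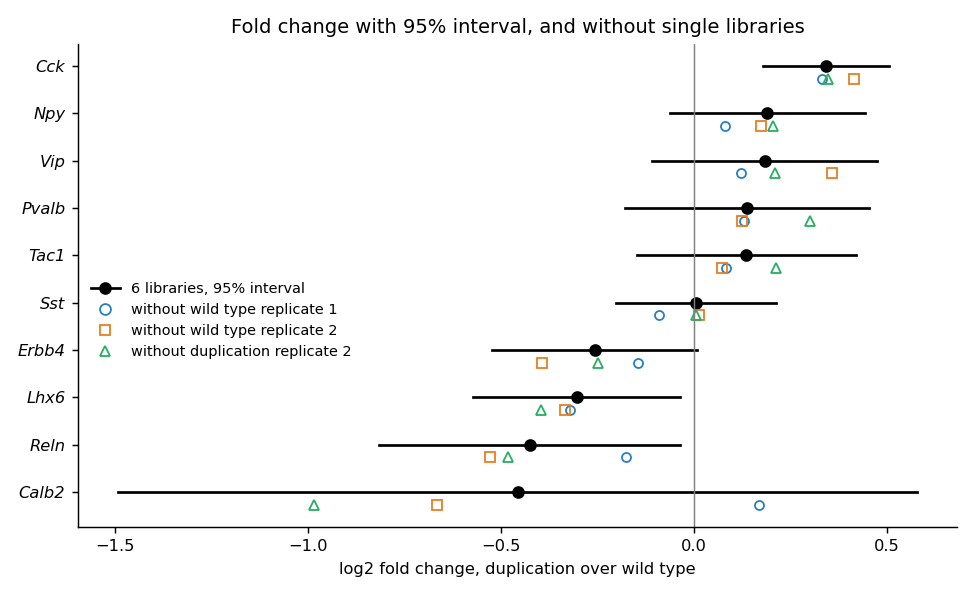
Log2 fold change of each marker, duplication over wild type (horizontal axis), with its 95% interval from 6 libraries (black), and the same value without wild type replicate 1, wild type replicate 2 or duplication replicate 2 (open symbols). Cck lies highest at 0.34 and Sst sits at 0.01, while Calb2 has the widest interval and moves to 0.17 without wild type replicate 1.

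Levels per length spanned a wide range and kept nearly the same order in both groups. Scaled to kilobases of annotated exon, Cck was the most abundant marker at 187 ± 18 CPM per kb in wild type (mean ± SD, n = 3) and 238 ± 1.3 in duplication libraries. Sst followed at 152 ± 20 and 152 ± 4.6, Npy at 69.4 ± 12 and 79.2 ± 2.4, and Pvalb at 27.2 ± 0.74 and 29.8 ± 6.3. Each of these steps held in 6 of 6 libraries without overlap in wild type. Erbb4, Vip and Calb2 came next at 12.03, 11.3 and 8.01 CPM per kb in wild type, and Reln at 6.44, with overlapping wild type libraries between each neighbour and the next. Tac1 was at 3.96 and Lhx6 lowest at 2.24 CPM per kb. In the duplication libraries Vip stood above Erbb4, at 12.8 against 10.1, and no other rank differed. Exon length is the union over annotated transcripts, which lowers the per-kb value of genes with long minor transcripts.

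**Figure D2:**
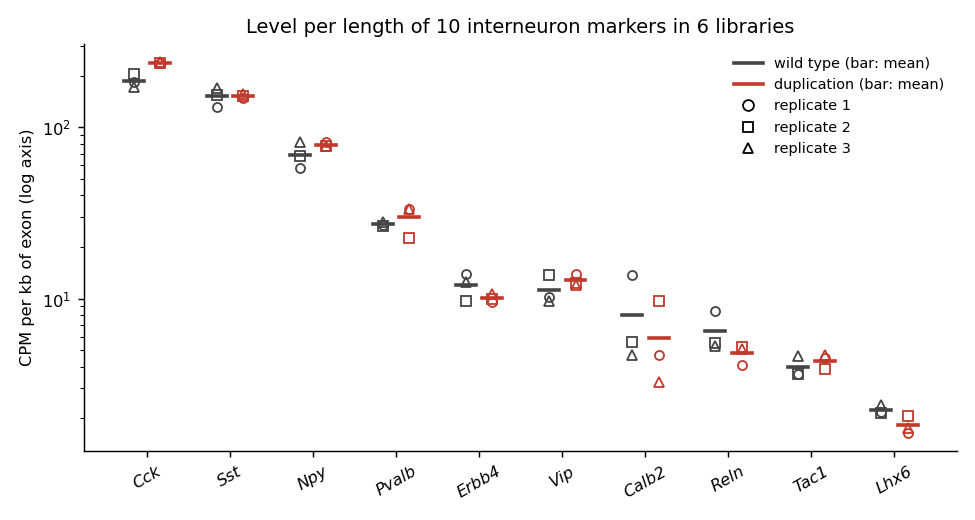
Level of each marker in CPM per kb of exon (log axis) in each library, wild type in grey and duplication in red, with bars at the group means and symbols for replicate numbers. The order runs from Cck to Lhx6, and the groups lie close together for Sst and apart for Cck.

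Among the markers of medial ganglionic eminence cells, somatostatin had the fold change closest to 0. Sst (mm10 chromosome 16, 23889573 to 23890958) was at 94.2, 111 and 123 CPM in wild type replicates 1 to 3 and at 106, 110 and 113 CPM in duplication replicates 1 to 3. The duplication libraries lay within the wild type range. The log2 fold change was 0.01 ± 0.09 (SE), with a 95% interval of 0.869-fold to 1.16-fold (edgeR adjusted p = 0.978). Its sign turned in several settings, with values from -0.09 without wild type replicate 1 to 0.10 without wild type replicate 3.

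Pvalb (chromosome 15, 78191114 to 78206400) was at 27.9, 27.8 and 29.2 CPM in wild type and at 34.9, 23.5 and 34.7 CPM in duplication libraries. Duplication replicates 1 and 3 lay above every wild type library and replicate 2 below them all. Pvalb had a log2 fold change of 0.14 ± 0.14 (edgeR adjusted p = 0.604). With 1 library left out it ran from 0.05 without duplication replicate 1 or 3 to 0.30 without duplication replicate 2. Tac1 (chromosome 6, 7554879 to 7565834), which encodes the substance P precursor made by some parvalbumin cells, was at 12.4, 12.3 and 15.7 CPM in wild type. It was at 15.2, 13.1 and 16.0 CPM in duplication libraries, with a log2 fold change of 0.14 ± 0.13 (edgeR adjusted p = 0.567). Its groups overlapped. Leaving out 1 library moved it to between 0.07, without wild type replicate 2, and 0.26, without wild type replicate 3, with 0.08 without wild type replicate 1 or duplication replicate 3, and it was 0.21 without duplication replicate 2. The counts of Tac1 were 0.437 to 0.559 of those of Pvalb across the 6 libraries.

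Npy (chromosome 6, 49822710 to 49829507), which encodes neuropeptide Y of somatostatin and neurogliaform cells, was at 33.0, 38.5 and 46.4 CPM in wild type. In duplication libraries it was at 46.4, 44.1 and 44.0 CPM. Wild type replicates 1 and 2 lay below the duplication libraries and replicate 3 among them, and the log2 fold change was 0.19 ± 0.11 (edgeR adjusted p = 0.373). It was 0.08 without wild type replicate 1 and 0.33 without wild type replicate 3. Within a library, the ratio of Npy to Sst counts was 0.350, 0.348 and 0.378 in wild type and 0.437, 0.401 and 0.390 in duplication libraries. The groups did not overlap in this ratio, which was singled out after its values were seen and has no test. Over all genes tested, single-gene levels did not overlap for 22.1%.

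Lhx6 (chromosome 2, 36081953 to 36105408) was at 10.5, 10.4 and 11.5 CPM in wild type libraries and at 7.91, 9.96 and 8.47 CPM in duplication libraries. Every duplication library lay below every wild type library. Lhx6 had a log2 fold change of -0.30 ± 0.12 (edgeR unadjusted p = 0.0311, adjusted p = 0.222), and over 6 libraries the gene had 897 counts in all. Non-overlap of this kind with lower duplication values held for 10.5% of all genes tested. The value lay between -0.40 and -0.23 when each library was left out in turn.

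Vip (chromosome 10, 5639218 to 5647617) was at 34.9, 47.0 and 33.0 CPM in wild type and at 47.3, 42.0 and 41.1 CPM in duplication libraries. Wild type replicate 2 lay among the duplication libraries and the other 2 below them. Vip had a log2 fold change of 0.18 ± 0.13 (edgeR adjusted p = 0.452). It was 0.09 without wild type replicate 3 and 0.12 without wild type replicate 1 or duplication replicate 1. Without wild type replicate 2 Vip passed, at 0.36 (edgeR adjusted p = 0.021), where 15.3% of genes were called. It also passed without both libraries numbered 2, a setting chosen after seeing the data, at 0.39 (edgeR adjusted p = 0.0458), where 8.49% were.

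Calb2 (chromosome 8, 110137502 to 110168210) differed more between libraries than between genotypes. It was at 24.0, 9.77 and 8.17 CPM in wild type and at 8.18, 16.8 and 5.65 CPM in duplication libraries. Wild type replicate 1 was the highest and duplication replicate 2 the second, so the groups overlapped. The log2 fold change was -0.46 ± 0.46 with a 95% interval of -1.49 to 0.58 (edgeR adjusted p = 0.602), and it turned to 0.17 without wild type replicate 1. Markers of the olfactory bulb, which lies in front of the prefrontal cortex and holds many calretinin cells, were highest in the same libraries. The 5 bulb markers summed to 33.6, 7.96 and 5.76 CPM in wild type replicates 1 to 3 and 5.18, 13.7 and 4.71 CPM in duplication replicates 1 to 3. Tbx21, a transcription factor of the bulb's mitral and tufted cells, had 23, 1 and 0 counts in wild type and 4, 4 and 1 in duplication libraries. Eomes, another factor of those cells, had 32, 4 and 0 counts and 0, 29 and 2 counts. Of the 5 bulb markers none was at 0 in all libraries, and only Th and Cdhr1 had enough counts to be tested. Their part in the Calb2 values was not tested. Without wild type replicate 1 and duplication replicate 2, Calb2 was at -0.36 ± 0.21 (edgeR adjusted p = 0.594).

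**Figure D3:**
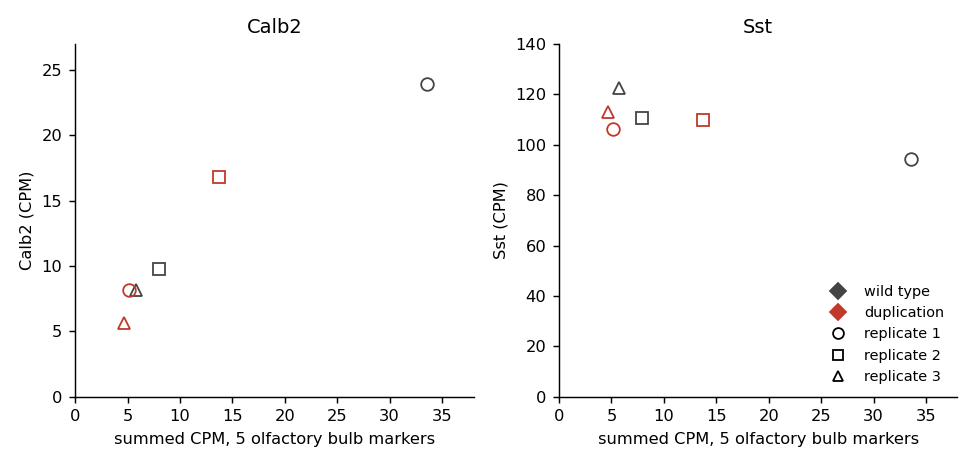
Level of Calb2 (left) and Sst (right) in CPM against the summed CPM of 5 olfactory bulb markers in each library, wild type in grey and duplication in red. Calb2 is highest, at 24.0 and 16.8 CPM, in the 2 libraries with most bulb marker counts, and Sst is lowest, at 94.2 CPM, in wild type replicate 1.

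Reln and Erbb4, long genes of 460 and 1076 kb, had lower values in the duplication libraries without passing. Reln (chromosome 5, 21884454 to 22344702) was at 202, 131 and 126 CPM in wild type and at 97.7, 123 and 121 CPM in duplication libraries. Every duplication library lay below every wild type library, as for 10.5% of all genes tested, and wild type replicate 1 stood far above the rest. The nearest libraries were wild type replicate 3 at 126 CPM and duplication replicate 2 at 123 CPM. The log2 fold change was -0.43 ± 0.17 (edgeR unadjusted p = 0.0356, adjusted p = 0.23). It was -0.17 without wild type replicate 1, the library with most bulb marker counts. As background, reelin is also made by mitral cells of the bulb and by Cajal-Retzius cells. Markers of the latter summed to at most 1.08 CPM in any library, with Lhx5 at 0 in all. The part of either cell type in the Reln value was not tested. Without a filter on low counts Reln passed at -0.42 (edgeR adjusted p = 0.0407), where 3.84% of genes were called.

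Erbb4 (chromosome 1, 68032186 to 69108059) was at 171, 120 and 155 CPM in wild type and at 118, 123 and 132 CPM in duplication libraries. Wild type replicate 2 lay among the duplication libraries. The log2 fold change was -0.26 ± 0.12 (edgeR adjusted p = 0.27), and -0.14 without wild type replicate 1. With wild type replicate 2 left out Erbb4 passed at -0.39 (edgeR adjusted p = 0.00664), where 15.3% of genes were called. Without both libraries numbered 2, a setting chosen after seeing the data, it passed at -0.38 (edgeR adjusted p = 0.0316), where 8.49% were. Erbb4 overlaps 8 other annotated genes and Reln 7, among them unspliced clone transcripts of the class TEC on the same strand, so their counts are uncertain to that extent.

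Cck (chromosome 9, 121489824 to 121495694), which encodes cholecystokinin, was the marker with the smallest p. It was at 241, 269 and 224 CPM in wild type libraries and at 310, 309 and 312 CPM in duplication libraries. Every duplication library lay above every wild type library, as for 11.7% of all genes tested, and the duplication libraries were nearly equal. The log2 fold change was 0.34 ± 0.07, a fold of 1.27 with a 95% interval of 1.13 to 1.42 (edgeR unadjusted p = 0.00105, adjusted p = 0.163). Cck passed with DESeq2 (adjusted p = 0.0135), where 1.48% of genes were called, and under 3 other edgeR settings. Its edgeR adjusted p was 0.0049 with no low-count filter, where 3.84% of genes were called. It was 0.00228 when wild type replicate 2 was left out, where 15.3% were. Without both libraries numbered 2, a setting chosen after seeing the data, it was 0.0125, where 8.49% were. Over all alternatives except names as deposited its adjusted p ran from 0.00228 to 0.999, with positive values in each. In the cortex Cck is made by many pyramidal cells as well as by basket cells. Slc17a7 was at 1043 CPM on average in wild type and at 940 in duplication libraries, so the ratio of Cck to Slc17a7 counts was 0.212, 0.292 and 0.209 in wild type. It was 0.334, 0.335 and 0.321 in duplication libraries, with no overlap. This ratio has no test, and the level of Cck alone already did not overlap.

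**Figure D4:**
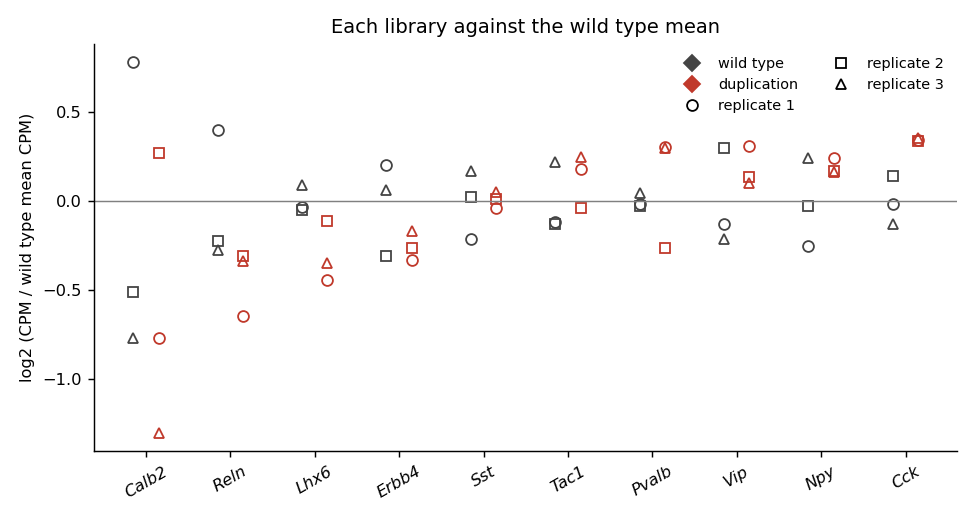
Log2 ratio of each library's CPM to the wild type mean for each marker, wild type in grey and duplication in red, with symbols for replicate numbers and markers ordered by fold change. Cck in the duplication libraries lies above all wild type libraries, Lhx6 and Reln below them, and wild type replicate 1 stands apart for Calb2 and Reln.

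Most of the peptide markers share a short promoter sequence. The cyclic AMP response element, with the letters TGACGTCA and the core TGACG, is bound by CREB, a factor activated by neuronal activity. Promoter sequences from RefSeq on build GRCm38.p6 matched 9 of the 10 markers by symbol, in 12 windows, all but Calb2. The 250 bases before the start held the core on either strand (TGACG or CGTCA) in 4 of these 9 genes, Sst, Vip, Cck and Tac1, and in 17.8% of all 32851 windows. The full element, which contains the core, was found in Sst alone among them and in 1.55% of windows. The E-box CACGTG, searched in the same way, was found in Cck, Tac1 and Reln and in 6.02% of windows. The 5 peptide genes are shown because their products are the secreted peptides of the set, and capitals mark the core, or in Sst the full element. The 30 bases around the site are given for Sst and Tac1, where another annotation places transcribed sequence, and the 100 bases before the start for the others, all from 5′ to 3′ on the gene's strand.
Sst, chr16:23890874-23890903, minus strand: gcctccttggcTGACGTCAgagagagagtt
Tac1, chr6:7555005-7555034, plus strand: ggctctacaggctCGTCAcgcctgagataa
Vip, chr10:5639118-5639217, plus strand: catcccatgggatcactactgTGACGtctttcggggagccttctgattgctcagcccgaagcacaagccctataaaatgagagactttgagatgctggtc
Cck, chr9:121495695-121495794, minus strand: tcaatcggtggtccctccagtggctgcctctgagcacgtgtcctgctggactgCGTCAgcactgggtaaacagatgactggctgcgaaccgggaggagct
Npy, chr6:49822610-49822709, plus strand: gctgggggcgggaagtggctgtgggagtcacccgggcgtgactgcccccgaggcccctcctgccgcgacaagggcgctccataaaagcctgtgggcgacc
The site began 48 bases before the start in Sst, 47 in Cck, 43 in Tac1 (with another core at 197) and 79 in Vip, and Npy had no core in the window. Log2 fold changes of the genes with the core ran from 0.01 for Sst to 0.34 for Cck, and Npy, without it, was at 0.19. The match is a description of the letters and no factor's binding was measured.

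The sign of the fold change went with gene length among the markers. The 4 markers of at least 20 kb, Lhx6, Calb2, Reln and Erbb4, had negative values, and the 6 shorter ones had positive values, Sst included at 0.01. Without wild type replicate 1, Calb2 turned to 0.17 and Sst to -0.09, so the split did not hold in that setting. This split was chosen after the values were seen and has no test. Over all genes with an annotated length, 55% of 7879 genes of at least 20 kb and 40.8% of 6708 shorter genes had negative values. In the bin over 200 kb, which holds Reln and Erbb4, 71.7% of 920 genes did, and the median log2 fold change was -0.13. In the bin from 5 to 20 kb, which holds Pvalb, Vip, Npy, Cck and Tac1, the median was 0.05. The 292 tested transcripts of the classes TEC and sense intronic, which are mostly unspliced RNA, had a median log2 fold change of -0.70. Their mean level around the average of the libraries was 0.47, -0.00028 and 0.53 on the log2 scale in wild type and -0.44, -0.43 and -0.12 in duplication libraries. The groups did not overlap in it. That level correlated at -0.86 with genotype, so a fit with both cannot tell them apart. With it as a covariate, Erbb4 turned to 0.24 and Vip to -0.32, Reln was at -0.09 and Cck at 0.15, and no marker passed.

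**Figure D5:**
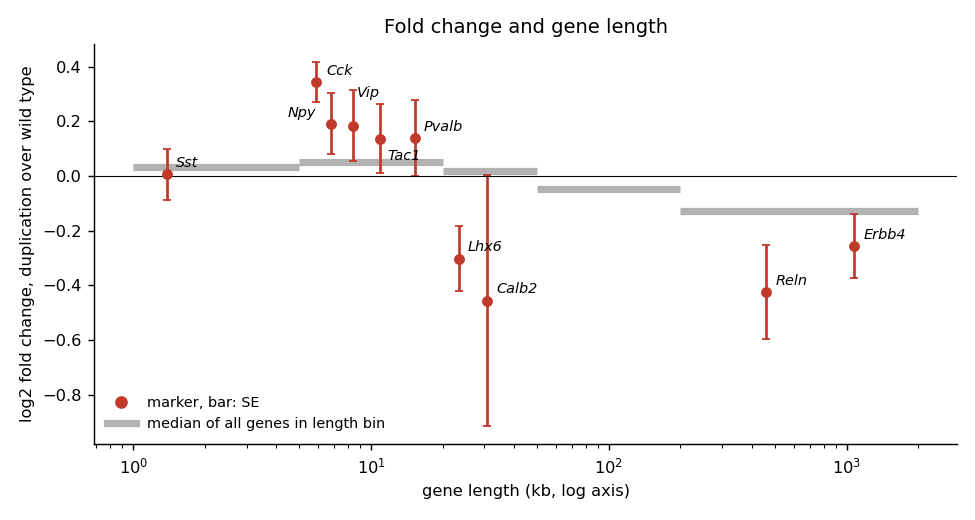
Log2 fold change of each marker (red, with SE) against gene length in kb (log axis), with grey bars at the median of all tested genes in each length bin. Markers under 20 kb lie at or above 0 and longer ones below it, and the grey bars fall from 0.05 in the bin from 5 to 20 kb to -0.13 over 200 kb.

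Other genes of the same interneuron classes did not pass either. Of 74 related genes in 8 lists, 72 had a name that could be used, and 66 were tested. In edgeR 0 were called higher and 0 lower over all genes, 3 and 12 had an unadjusted p under 0.05, and DESeq2 called 1, Kcnc1. Such a p was found for 7.05% of all genes with a higher and 12.2% with a lower value. With wild type replicate 2 left out, 12 related genes passed where 15.3% of all genes did. Crhbp, Id2 and Cxcl14 were then higher, and Kcnc1, Syt2, Btbd11, Nos1, Tacr1, Dab1, Nrg3 and Nrg1 were among the lower ones. Of the genes of GABA synthesis and transport none passed. Gad1 and Gad2, the glutamate decarboxylases, were at -0.14 ± 0.14 and -0.12 ± 0.09, and Slc32a1, the vesicular GABA transporter, at -0.14 ± 0.11, on the log2 scale. Gad1 was at 314 CPM in wild type replicate 1 and at 212 to 232 CPM in the other 5 libraries, and turned to 0.08 without that library, where Gad2 and Slc32a1 were each at -0.02. Without wild type replicate 2, Gad1, Gad2 and Slc32a1 were at -0.23, -0.21 and -0.23 and did not pass. The median of the 4 genes of this list was -0.13 with all libraries.

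Interneuron transcription factors had a median log2 fold change of -0.13, and 14 of 15 were tested, each with a negative value. Dlx6 and Dlx2, homeobox factors of developing interneurons, were at -0.53 ± 0.27 and -0.64 ± 0.37 (edgeR adjusted p = 0.311 and 0.362), and at -0.32 and -0.27 without wild type replicate 1. Nkx2-1, which patterns the medial ganglionic eminence in the embryo, had 0 counts in all libraries. Wild type replicate 1 stood above the rest here too, with a mean level 0.53 above the average of the libraries on the log2 scale, against -0.18 to -0.06 in the others. The median of the list was -0.02 without it.

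Among 7 other genes of parvalbumin cells the median log2 fold change was -0.09, with 0 higher and 3 lower at an unadjusted p under 0.05. Over all genes tested 7.05% were higher and 12.2% lower at such a p. Kcnc1, a potassium channel of fast firing, was at 105, 60.2 and 82.9 CPM in wild type and at 51.8, 58.2 and 57.2 CPM in duplication libraries. Every duplication library lay below every wild type library, as for 10.5% of all genes tested. The log2 fold change was -0.57 ± 0.17 (edgeR adjusted p = 0.174, DESeq2 adjusted p = 0.037), and DESeq2 called 1.48% of genes. Syt2, the calcium sensor for release at these cells' terminals, was at -0.38 ± 0.15 and Btbd11 at -0.23 ± 0.10. Without wild type replicate 1 the 3 genes were at -0.36, -0.22 and -0.15. Without wild type replicate 2 they were at -0.76, -0.53 and -0.31 (edgeR adjusted p = 0.00215, 0.0172 and 0.0492), where 15.3% of genes were called.

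The 8 other genes of somatostatin cells had a median of 0.10. At an unadjusted p under 0.05, 1 was higher and 2 were lower, against 7.05% and 12.2% of all genes. Crhbp, which encodes a binding protein for corticotropin-releasing hormone, was at 14.6 CPM in wild type and 17.7 in duplication libraries. Every duplication library lay above every wild type library, as for 11.7% of all genes tested (log2 fold change 0.28 ± 0.10, edgeR adjusted p = 0.197). Nos1, the neuronal nitric oxide synthase of a rare long-range type, was at -0.67 ± 0.24, and its wild type libraries ran from 23.6 to 46.1 CPM. It was at -0.44 without wild type replicate 3 and at -0.91 without wild type replicate 2 (edgeR adjusted p = 0.01), where Crhbp was at 0.36 (0.0374). Elfn1, a synaptic protein that shapes input to these cells, was at -0.33 ± 0.14, and at -0.22 without duplication replicate 1.

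Of 7 other genes of vasoactive intestinal peptide cells 6 were tested, with a median of -0.0006. Tac2, the neurokinin B precursor, was at 4.35, 4.50 and 3.72 CPM in wild type and at 6.28, 5.18 and 6.09 CPM in duplication libraries. Every duplication library lay above every wild type library, as for 11.7% of all genes tested. The log2 fold change was 0.49 ± 0.14 (edgeR unadjusted p = 0.00726, adjusted p = 0.174). Penk, the enkephalin precursor, was at -0.30 ± 0.14, and at -0.19 without wild type replicate 2. Adarb2, which marks caudal ganglionic eminence cells, was at -0.19 ± 0.15, and at 0.0072 without wild type replicate 1.

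In the list of 8 neurogliaform and cholecystokinin basket cell genes 7 had positive values, with a median log2 fold change of 0.16. Of the markers, Cck and Npy were positive too and Reln was negative. Over all 15419 genes tested 7855 had positive values. With an unadjusted p under 0.05 there were 1 higher, Id2, and 0 lower, against 7.05% and 12.2% of all genes. Id2, an inhibitor of helix-loop-helix factors, was at 78.1 CPM in wild type and 91.2 in duplication libraries. Every duplication library lay above every wild type library, as for 11.7% of all genes tested (log2 fold change 0.22 ± 0.07, edgeR adjusted p = 0.18). The chemokine Cxcl14 was at 0.22 ± 0.10 and Lamp5, a lysosome-associated protein that marks neurogliaform cells, at 0.26 ± 0.14. Lamp5 was at 0.09 without duplication replicate 1 and Cxcl14 at 0.15 without wild type replicate 3. With wild type replicate 2 left out, Id2 was at 0.29 and Cxcl14 at 0.32 (edgeR adjusted p = 0.0185 and 0.0425), where 15.3% of genes were called. Tested markers of other cell types differed in direction. Positive values were found in 6 of 6 astrocyte (median 0.13), 6 of 6 microglia (median 0.10) and 5 of 6 endothelial genes (median 0.12). All 8 meningeal fibroblast genes (median 0.74) and 3 of 3 septal genes (median 0.54) were positive too. In pyramidal genes 2 of 9 were positive (median -0.17) and in striatal genes 2 of 6 (median -0.12). Among oligodendrocyte genes 0 of 6 were (median -0.34), and among olfactory bulb genes 0 of 2 (median -0.84). The part of these cell types in the values of the neurogliaform and cholecystokinin list was not tested.

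None of the receptors for the markers' own products passed in edgeR with the low-count filter and all 6 libraries. Of 18 receptor and signalling genes 13 were tested, with 0 higher and 3 lower at an unadjusted p under 0.05, against 7.05% and 12.2% of all genes, and a median log2 fold change of -0.12. Npy1r and Npy5r were not analysed here, since their names lie close to a step of the re-alignment. Tacr1, the receptor for substance P from Tac1, had 27, 22 and 25 counts in wild type and 11, 18 and 6 in duplication libraries, or 1.83 and 0.696 CPM on average. Its log2 fold change was -1.43 ± 0.38 (edgeR unadjusted p = 0.00471, adjusted p = 0.174). Every duplication library lay below every wild type library, as for 10.5% of all genes tested. Tacr1 was at -1.55 without wild type replicate 2 (edgeR adjusted p = 0.0381), where 15.3% of genes were called. Npy2r, a neuropeptide Y receptor, was at 5.22, 8.87 and 5.25 CPM in wild type and at 3.18, 4.71 and 3.45 CPM in duplication libraries, again without overlap. Its log2 fold change was -0.79 ± 0.24 (edgeR adjusted p = 0.175), and -0.49 without wild type replicate 2. Without a filter on low counts Tacr1 and Npy2r passed (edgeR adjusted p = 0.0151 and 0.0182), where 3.84% of genes were called. Dab1, the adaptor that carries the reelin signal, was at -0.20 ± 0.08, and at -0.27 without wild type replicate 2 (edgeR adjusted p = 0.0251).

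Neuregulins and ErbB receptors, the ligands and relatives of ErbB4, had values in both directions. None passed in edgeR with the low-count filter and all 6 libraries. Of 7 such genes 6 were tested, with a median log2 fold change of -0.25. At an unadjusted p under 0.05, 0 were higher and 3 lower, against 7.05% and 12.2% of all genes. Nrg3, a neuregulin ligand of ErbB4, was at 75.3, 58.7 and 72.6 CPM in wild type and at 48.2, 55.9 and 56.4 CPM in duplication libraries. Its log2 fold change was -0.36 ± 0.10, and that of Nrg1, another ligand, was -0.51 ± 0.17 (edgeR adjusted p = 0.174 and 0.186). Erbb3, which is typical of oligodendrocyte lineage cells, was at -0.55 ± 0.15 (edgeR adjusted p = 0.174). In each of these 3 genes every duplication library lay below every wild type library, as for 10.5% of all genes tested. Erbb2, the co-receptor of ErbB4, was at 1.11 to 1.39 CPM in wild type and 1.44 to 1.68 in duplication libraries. It lay above without overlap, as for 11.7% of all genes tested (log2 fold change 0.39 ± 0.22, edgeR adjusted p = 0.371). Egfr, the receptor for epidermal growth factor, was at 0.15 ± 0.12 with overlap. Erbb2 and Egfr are named here after their values were seen, as the positive genes of the list. Nrg1 was at -0.34 without wild type replicate 1. With wild type replicate 2 left out, Nrg3 was at -0.47 and Nrg1 at -0.66 (edgeR adjusted p = 0.00531 and 0.0237), where 15.3% of genes were called. Without a filter on low counts Nrg3 and Erbb3 passed (edgeR adjusted p = 0.0255 and 0.0391), where 3.84% were. Oligodendrocyte markers had a median log2 fold change of -0.34, and their part in the Erbb3 value was not tested.

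By the root mean square difference of log2 profiles over the 6 libraries, each marker had nearest genes outside the set. For Erbb4 these were Lrfn3 and Slc12a5, a synaptic adhesion protein and the neuronal chloride exporter, at 0.0184 and 0.0236. For Cck they were Kcnv1 (0.0255) and Gtf2h4 (0.0349), for Sst Arrdc3 (0.0233) and Mob3a (0.0276), and for Reln Ptpro (0.0613) and Itga4 (0.0768). Calb2, whose own profile spread by 0.693, had its nearest profiles at 0.185 in Trh and 0.225 in Th, the thyrotropin-releasing hormone precursor and the enzyme of dopamine synthesis. Trh was at 3.79, 1.59 and 1.82 CPM in wild type and at 1.36, 3.10 and 1.13 CPM in duplication libraries, with the same 2 libraries highest as for Calb2. The nearest profiles were for Pvalb A330035P11Rik and Nfkbiz, for Vip Id1 and Pno1, for Lhx6 Gm16894 and RP23-356K2.6, for Npy Ctbs and Mocs3, and for Tac1 D3Ertd751e and Mroh7. With 15419 genes and 6 libraries, close profiles occur in number, and likeness is a description only.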

How the data were processed

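The authors deposited raw read counts per gene for 6 libraries. Per the labels' protocols, Trizol was used for extraction and the TruSeq kit for stranded total RNA, after Ribo-Zero depletion, for the libraries. The submitters' processing notes name cutadapt, TopHat2, HTSeq and the build mm10. For the strand setting, nothing is given in the sources here. The file has 45807 lines of counts but 45801 names, so names were re-aligned in 6 steps, which moved 65.1% of them. Names within 25 lines of a step were not used, and the 312 unnamed lines held 0.606% to 0.636% of counts. Each library was compared as labelled with edgeR 4.0.16 in R 4.3.3 (TMM factors, filterByExpr, quasi-likelihood test, Benjamini-Hochberg threshold 0.05), and the script was tested on simulated data. CPM were computed on TMM-scaled library sizes, and their log2 with a prior count of 2. SE is the log2 fold change over the root of F. Common dispersion had a square root of 0.0951. Reads carry no molecular identifiers, so PCR copies are not separate molecules. Positions and classes are from GENCODE M21. Alternatives were DESeq2 1.42.0, limma-voom 3.58.1, other scalings and filters, each library left out, a replicate block, names as deposited and 2 covariates. The markers, lists and rules were chosen with earlier results of these data known. Named are all 10 markers, the 3 genes of each related list with the smallest p, up to 3 of each other cell type list, and the 2 nearest profiles per marker. A gene that this rule would name is not reported here.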

Additional observations from a re-analysis of the deposited data

How the results depend on the processing

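Of the markers' fold changes under other settings, 178 kept their direction and side of the threshold, 9 newly passed and 9 turned. Other scaling factors turned no marker. Where a value differed, the cause was not tested.

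DESeq2 called 1 marker higher, 1 related gene, and 48 higher and 176 lower over all genes, against 0 in edgeR, where 1087 and 1880 had an unadjusted p under 0.05. Without a filter on low counts edgeR called 1 marker higher and 1 lower, 6 related genes, and 173 higher and 843 lower. The 6 related genes were Kcnc1, Nos1, Tacr1, Npy2r, Erbb3 and Nrg3, each with a negative value. With each library left out in turn, 0 to 2 markers were higher and 0 to 1 lower, 0 to 12 related genes were called, and 0 to 727 genes were higher and 0 to 1677 lower over all. The upper ends came without wild type replicate 2, where Vip and Cck were higher and Erbb4 lower. The GABA list's median then ran from -0.22 to 0.030, the latter without wild type replicate 1, and that of neuregulins and ErbB receptors from -0.47 to -0.19. With the replicate number as a block 6 genes were higher and 1 lower, with 0 markers. Deviations of same-numbered libraries correlated at 0.102, 0.0626 and 0.311, and not every library correlated best with its own number. Without both libraries numbered 2, a setting chosen after seeing the data, 2 markers were higher and 1 lower, 6 related genes were called, 230 genes were higher and 1094 lower, and the neuregulin and ErbB median was -0.50.

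Without wild type replicate 1, Sst was at -0.089, Calb2 0.17, Gad1 0.079 and Adarb2 0.0072, while the other ends of their ranges were 0.10 (Sst), -0.98 (Calb2), -0.23 (Gad1) and -0.32 (Adarb2). Sst was at -0.015 without duplication replicate 3 and at -0.0035 with a stricter filter. Without the 2 libraries with most bulb marker counts, also chosen after seeing the data, Sst was at -0.091, Gad1 0.11 and the GABA median 0.044. With names as deposited Reln was at 0.068, Cck -0.056, Tacr1 0.14, the receptor median 0.0023 and the neuregulin and ErbB median 0.11, and the GABA list gave no value. With the level of unspliced transcripts as a covariate, which leaves 3 residual degrees of freedom, Vip was at -0.32, Erbb4 0.24, Gad1 0.13, Gad2 0.10, Slc32a1 0.077, Dlx2 0.13, Kcnc1 0.076, Syt2 0.14, Btbd11 0.070, Nos1 0.26, Elfn1 0.00012, Adarb2 0.10, Id2 -0.0057, Cxcl14 -0.17, Lamp5 -0.15, Dab1 0.014, Nrg3 0.028 and Nrg1 0.034. The list medians were then 0.11 (GABA), 0.070 (parvalbumin), -0.16 (neurogliaform and cholecystokinin), 0.054 (receptors) and 0.013 (neuregulins and ErbB receptors). The covariate correlated at -0.86 with genotype, so these values cannot tell it apart from the duplication. Tacr1 rests on 6 to 27 counts per library.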

Other observations

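The ratio of Reln to Gad1 counts in replicates 1 to 3 was 0.643, 0.619 and 0.594 for wild type and 0.422, 0.578 and 0.534 for the duplication. The groups did not overlap, with the nearest libraries at 0.594 and 0.578, and the level of Reln alone already did not overlap. Wild type replicate 1, the highest library for each gene alone, lay close to the other wild type libraries in the ratio. The ratio of Cck to Gad1 counts was 0.768, 1.27 and 1.05 in wild type and 1.34, 1.45 and 1.38 in duplication libraries, again without overlap. Cck alone did not overlap either. The ratio of Sst to Pvalb counts overlapped, at 3.38, 3.99 and 4.21 against 3.05, 4.68 and 3.25. The ratio of Calb2 to Vip counts was 0.686, 0.208 and 0.248 in wild type and 0.173, 0.401 and 0.137 in duplication libraries, with the 2 libraries richest in bulb markers highest. These ratios were singled out after their values were seen and have no test. Single-gene levels did not overlap for 22.1% of all genes tested.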
